A study of Homo sapiens with 54 samples.

Results

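The mitochondrial ribosomal protein genes were examined in HEK293T cells, a transformed human embryonic kidney line, after transfection with RNA-targeting Cas13 effectors. Members were all genes that the authors marked as kept and whose symbol is MRPL or MRPS followed by a number and at most 1 letter. This gave 78 genes of the 15464 kept and the 38137 listed, namely 49 large-subunit (MRPL) and 29 small-subunit (MRPS) genes, and all 78 were tested. Poly(A)-selected RNA was sequenced from 18 groups of 3 independent biological replicates, 54 libraries in all. The effectors were WT (RfxCas13d) and its high-fidelity variants N2V7 (RfxCas13d-N2V7) and N2V8 (RfxCas13d-N2V8). Each effector was delivered on a transiently transfected plasmid, driven by the CAG promoter, together with a U6-driven crRNA: the non-targeting guide NTG, the C9orf72-targeting crRNA 13 (S13), or an additional crRNA named S3, S4 or S7. The remaining groups were untransfected cells (UT) and cells treated with an antisense oligonucleotide, ASO2 or ASO4. All groups share the wild-type genotype of the line and, per the labels, harvest at 48 hours after transfection, although the paper names a later time point. The label of the N2V8_S13 libraries spells the effector N2V87. UT cells were not transfected, so in a comparison of NTG with UT the effector and the transfection cannot be told apart.

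Mitochondrial ribosomes translate the few proteins encoded by mitochondrial DNA, all of them core subunits of the respiratory chain and ATP synthase. Their RNA comes from mitochondrial DNA, but every protein of the particle is encoded in the nucleus, translated in the cytosol and imported. Supply of both subunits therefore rests on many nuclear genes scattered over the genome, and the promoters of such genes are known for ETS-family (GABP), NRF1 and YY1 sites. Symbols do not match the subunits in every case: the proteins of MRPS18A and MRPS30 sit in the large subunit, and the product of MRPS36 (now KGD4) is a part of the 2-oxoglutarate dehydrogenase complex. The counts below follow the symbols.

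The members lie on 21 chromosomes, and their positions were not compared with their changes. Promoter sequences from RefSeq (GRCh38.p14) were matched for 70 members. The 250 bases before each start were searched on both strands for the ETS core CCGGAAG, the NRF1 core GCATGCGC, the YY1 core AAGATGGC, the CCAAT box (CCAAT), the GC box (GGGCGG) and the TATA box (TATAAA). None of these letter strings contains another, but matches on one or both strands can share bases. The ETS core was present in 23 of the 70 (32.9%), against 15.2% of the 12103 promoters of tested genes. The NRF1 core was present in 6 of the 70 (8.57%) against 4.78%, and the YY1 core in 5 (7.14%) against 1.78%, both small counts. The GC box was rarer than among tested promoters (55.7% against 67.0%), as were the CCAAT box (27.1% against 34.9%) and the TATA box (4.29% against 5.34%). By subunit, the ETS core was present in 33.3% of 42 large-subunit and 32.1% of 28 small-subunit promoters, and the GC box in 45.2% and 71.4%. These shares are descriptions and were not tested. A match describes the letters and does not show that a factor binds there. The promoters of 6 members that changed in several comparisons, or that differ in motif makeup, are shown 5′ to 3′ on the gene's own strand and end at the base before the start, with motif matches in capitals.
MRPL41 (chr9:137551629-137551878, plus strand): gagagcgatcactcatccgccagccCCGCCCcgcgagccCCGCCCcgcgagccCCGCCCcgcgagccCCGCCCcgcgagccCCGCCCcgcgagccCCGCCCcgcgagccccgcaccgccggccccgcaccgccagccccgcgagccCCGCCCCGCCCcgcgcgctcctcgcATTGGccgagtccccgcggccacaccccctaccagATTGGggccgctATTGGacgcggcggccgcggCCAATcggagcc
MRPL32 (chr7:42932126-42932375, plus strand): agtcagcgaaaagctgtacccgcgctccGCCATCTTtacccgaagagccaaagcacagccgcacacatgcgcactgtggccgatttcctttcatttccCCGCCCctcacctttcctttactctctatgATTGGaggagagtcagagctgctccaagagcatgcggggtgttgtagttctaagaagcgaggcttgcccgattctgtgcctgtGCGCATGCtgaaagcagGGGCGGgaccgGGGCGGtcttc
MRPL1 (chr4:77862580-77862829, plus strand): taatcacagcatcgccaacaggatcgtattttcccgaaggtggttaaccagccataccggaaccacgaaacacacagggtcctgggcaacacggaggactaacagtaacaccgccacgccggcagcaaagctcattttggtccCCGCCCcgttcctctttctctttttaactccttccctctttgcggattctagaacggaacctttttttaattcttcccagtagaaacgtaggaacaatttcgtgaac
MRPL51 (chr12:6493263-6493512, minus strand): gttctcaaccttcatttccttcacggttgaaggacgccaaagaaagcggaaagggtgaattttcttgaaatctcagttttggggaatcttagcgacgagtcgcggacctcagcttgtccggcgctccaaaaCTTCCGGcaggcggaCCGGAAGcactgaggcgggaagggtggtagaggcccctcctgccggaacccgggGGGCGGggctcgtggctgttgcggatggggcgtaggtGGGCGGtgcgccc
MRPS12 (chr19:38930694-38930943, plus strand): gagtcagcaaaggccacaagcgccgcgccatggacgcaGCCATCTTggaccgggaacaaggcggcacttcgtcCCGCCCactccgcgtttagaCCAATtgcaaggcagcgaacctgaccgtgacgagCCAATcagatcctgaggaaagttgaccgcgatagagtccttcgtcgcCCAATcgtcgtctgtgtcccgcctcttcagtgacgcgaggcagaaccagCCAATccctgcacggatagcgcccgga
MRPS22 (chr3:139343744-139343993, plus strand): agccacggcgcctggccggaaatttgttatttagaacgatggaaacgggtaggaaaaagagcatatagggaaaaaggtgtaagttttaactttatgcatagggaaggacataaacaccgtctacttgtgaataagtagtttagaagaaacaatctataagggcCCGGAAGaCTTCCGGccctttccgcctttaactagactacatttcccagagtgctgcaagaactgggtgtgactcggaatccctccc
MRPL41 carries 8 GC-box and 4 CCAAT-box matches and no ETS core, some of the GC-box matches overlapping. MRPL32 carries single NRF1, YY1 and CCAAT matches beside 3 GC boxes. MRPL51 and MRPS22 each carry 2 ETS cores, in MRPS22 on opposite strands 1 base apart. MRPL1 has 1 GC box and none of the other motifs.

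Library totals ranged from 9546773 to 15099225 estimated counts, and the lowest count of any member in any library was 60. The 6 markers of the embryonic kidney line (PAX2, NEFL, NEFM, VIM, KRT8, KRT18) summed to 1190 to 1803 CPM (read counts scaled to a common library size). The 6 markers of mature kidney, the labelled tissue, summed to only 0 to 0.55 CPM, and 8 markers of other cell types to 22.3 to 51.2 CPM. VIM made up most of the first sum (median 923 CPM). PAX2 (median 5.58) and KRT8 (11.7) stood below COL1A1 (19.0) of the other cell types, so not every single marker separates the classes. Library 2 of N2V7_S4 stood apart from its group (residual SD 0.373 on the log2 scale, against at most 0.139 for any library outside that group). C9orf72, the gene that S13 addresses, had 29.04, 33.2 and 25.6 CPM in WT_NTG and 26.5, 25.9 and 26.7 CPM in WT_S13, which did not pass the test (adjusted p = 0.281), nor did it in N2V7 (0.678) or N2V8 (0.731). These are sums over the gene and do not resolve its transcript variants. In ASO4 it was 10.5, 11.9 and 10.6 CPM against 27.5, 30.02 and 29.4 in UT (log2 difference -1.40 ± 0.10 SE, adjusted p = 2.15e-16). Crossing the threshold below means a change past the fold limit, 25% above the lower of the 2 levels, with an adjusted p below 0.05 in edgeR's quasi-likelihood test, adjusted by the Benjamini-Hochberg method over all 15378 genes and all comparisons of a family. The words rose, fell and changed are used only for genes that crossed it. In bulk RNA, fewer cells of a kind and less RNA per cell cannot be told apart.

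In untransfected cells the members spanned a wide range once length was taken into account. Levels are given as CPM per kilobase of the canonical GENCODE v44 transcript, mean ± SD of the 3 UT libraries. The highest were MRPL37 (117 ± 9.18), MRPL3 (98.7 ± 7.22), a core protein of the large subunit, and MRPS24 (95.5 ± 6.71), and the lowest were MRPS23 (8.23 ± 1.08), MRPS25 (7.99 ± 0.558) and MRPS11 (7.25 ± 1.64). MRPL37 stood above MRPL3 by more than the SD of either, whereas MRPL3 and MRPS24 did not differ beyond theirs, nor did the 3 lowest. The median was 32.9 over all members, 34.2 for the large subunit and 27.1 for the small one. MRPL42 (8.41 ± 0.293) was divided by a canonical transcript annotated at 15557 bases, the longest of any member. MRPS23, MRPS25 and MRPS11 were likewise divided by long transcripts (5609, 4572 and 3392 bases). Their mean CPM in UT before that division (46.2, 36.5 and 24.6) stood above that of MRPL1 (10.6). The order thus depends on the annotated lengths.

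**Figure D1:**
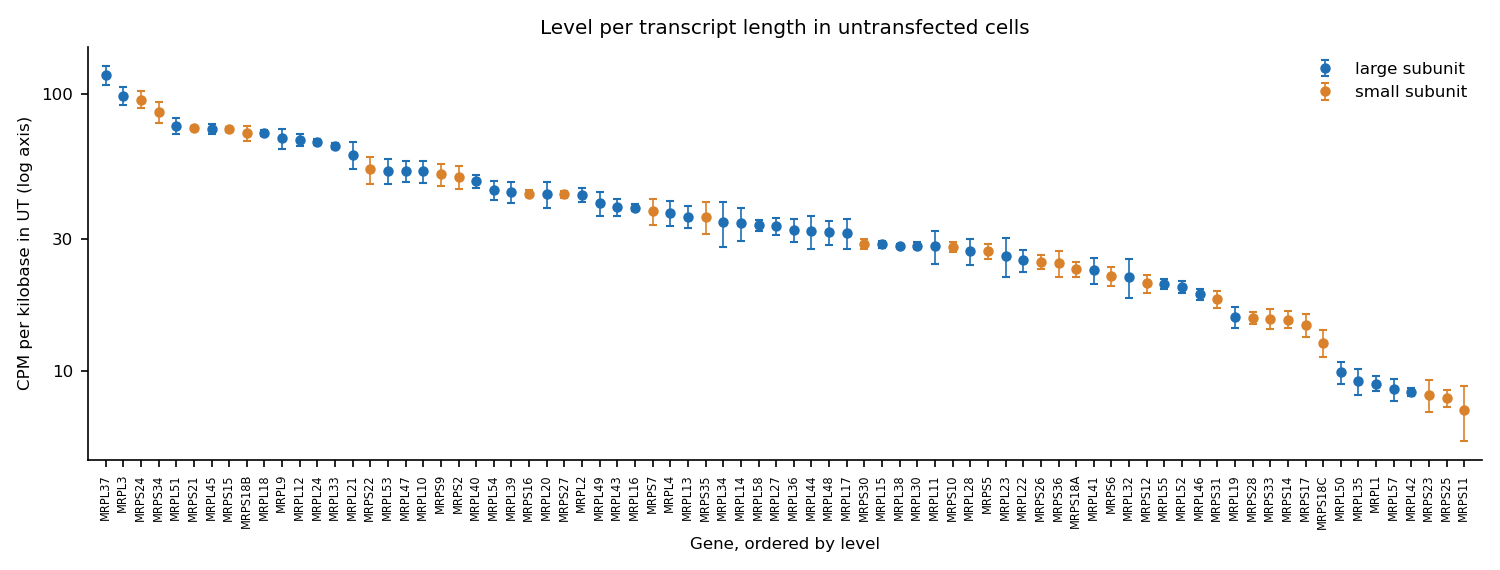
Level of each of the 78 members in untransfected cells as CPM per kilobase of transcript on a log axis, ordered from highest to lowest; points are means and bars the SD of 3 libraries, in blue for the large and orange for the small subunit. Both subunits are spread over the whole range, from MRPL37 at 117 to MRPS11 at 7.25.

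Across groups the members were lowest relative to UT in WT_NTG and highest in N2V8_NTG. For each library the median over the 78 members of log2(CPM) minus log2 of the UT mean was taken. It ran from -0.07 to 0.08 in the 3 UT libraries and averaged -0.04 ± 0.003 (SD, n = 3) in WT_NTG, 0.11 ± 0.04 in N2V7_NTG and 0.33 ± 0.02 in N2V8_NTG. With S13 it averaged 0.14 ± 0.01 for WT, 0.27 ± 0.01 for N2V7 and 0.19 ± 0.07 for N2V8. WT_NTG thus lay within the UT spread and N2V8_NTG above it, and the means of the 3 effectors lay further apart with NTG than with S13. The summed CPM of the members averaged 4239 in UT, 4134 in WT_NTG, 4653 in WT_S13, 4412 in N2V7_NTG, 4978 in N2V7_S13, 5129 in N2V8_NTG and 4713 in N2V8_S13. The ratio of summed large-subunit to small-subunit CPM stayed between 1.67 and 1.81 in all 54 libraries.

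**Figure D2:**
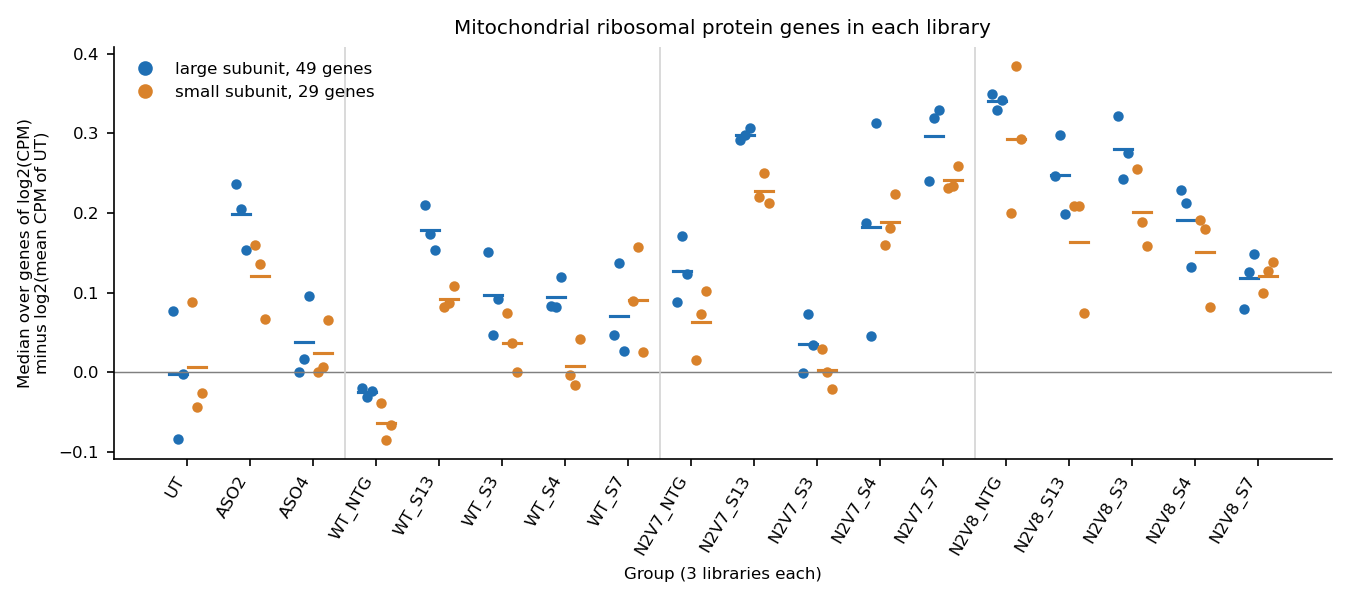
Median over the large-subunit (blue) and small-subunit (orange) genes of log2(CPM) minus log2 of the mean UT CPM; each point is 1 library and each short line a group mean. Over all 78 members the group means run from -0.04 in WT_NTG to 0.33 in N2V8_NTG.

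With the non-targeting guide, N2V8 cells held more mitochondrial ribosomal protein mRNA than untransfected cells across much of the family. Of the 78 members, 40 rose and 1 fell, and the median log2 difference was 0.34, against 0.00 over all genes tested. Of all genes tested, 15.3% rose and 14.7% fell in this comparison. Within the large subunit 28 of 49 rose, and within the small subunit 12 of 29. Of the 41 calls, 30 held when each library was left out.

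MRPL23, a protein at the exit of the peptide tunnel, had 18.5, 14.4 and 19.9 CPM in the UT libraries and 39.6, 43.4 and 41.2 CPM in N2V8_NTG. The groups did not overlap, and the rise was 2.37-fold (95% interval of the log2 difference 1.02 to 1.48, adjusted p = 7.5e-13). MRPL41, a mitochondria-specific large-subunit protein, went from 15.2, 12.6 and 12.7 CPM to 28.7, 30.3 and 28.5 CPM, again without overlap (log2 difference 1.11 ± 0.11 (SE), adjusted p = 2.34e-12). MRPL1, which forms the mobile L1 stalk where spent tRNA leaves, had 10.5, 10.03 and 11.3 CPM in UT and 20.9, 20.9 and 21.8 CPM in N2V8_NTG (log2 difference 1.00 ± 0.12 (SE), adjusted p = 2.51e-09). These 3 were the members with the largest rises, near or above 2-fold. MRPL32, whose protein is matured by the m-AAA protease before it enters the ribosome, rose 1.88-fold (log2 difference 0.91 ± 0.10 (SE), adjusted p = 2.15e-11), from 22.4, 16.9 and 17.3 CPM in UT to 35.1, 31.3 and 39.9 CPM. MRPL35 (0.81), MRPL55 (0.78), MRPL33 (0.75) and MRPL20 (0.75) followed on the log2 scale, all large-subunit proteins. The largest rise in the small subunit was MRPS28 at 0.75, and MRPS25 stood at 0.71.

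MRPL45, which sits at the tunnel exit and anchors the ribosome to the inner membrane, was the member that fell. It had 121, 112 and 115 CPM in UT and 88.6, 86.7 and 92.5 CPM in N2V8_NTG, and it fell (log2 difference -0.38 ± 0.06 (SE), adjusted p = 7.63e-07). It also fell in N2V7_NTG, to 74.8, 78.98 and 79.3 CPM (log2 difference -0.58 ± 0.06 (SE), adjusted p = 1.26e-11), and in WT_NTG, to 94.3, 96.2 and 87.7 CPM (log2 difference -0.32 ± 0.06 (SE), adjusted p = 1.21e-05). No effector library of these groups reached the lowest UT library. In WT_NTG its change sat at the fold limit and the call was lost under DESeq2, DESeq2 size factors and no low-count filter, without UT replicate 1 and without WT_NTG replicate 3. MRPL45 has close pseudogene copies, so its counts may hold reads shared with them.

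N2V7_NTG shifted the same family in part. Against UT, 16 members rose and 4 fell (of all genes tested, 10.9% rose and 9.95% fell), with a median of 0.11, and 13 of the 16 were large-subunit genes. MRPL23 reached 31.9, 37.6 and 37.5 CPM (log2 difference 1.03 ± 0.12 (SE), adjusted p = 2.56e-10) and MRPL41 reached 25.4, 25.2 and 23.97 CPM (log2 difference 0.89 ± 0.11 (SE), adjusted p = 2.65e-09). MRPL1 (0.65), MRPS25 (0.51), MRPL51 (0.49), MRPL33 (0.46), MRPL55 (0.46) and MRPL32 (0.43) were the next largest rises on the log2 scale. The falls were MRPL45, MRPS6 (-0.56), MRPL10 (-0.40) of the L7/L12 stalk, and MRPL17 (-0.33), whose call was lost under limma-trend. Of the 20 calls, 11 held when each library was left out.

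In WT_NTG 3 members crossed the threshold against UT: 1 rose and 2 fell, and the median was -0.04. Of all genes tested, 2.71% rose and 2.39% fell, so the member counts were near the share over all genes and are no result about the family. MRPL23 rose to 26.4, 23.6 and 21.2 CPM (log2 difference 0.44 ± 0.12 (SE), adjusted p = 0.00301), a call lost without UT replicate 2. MRPS6, a small-subunit protein that binds beside MRPS18C, had 20.4, 22.1 and 18.98 CPM in UT and 14.3, 14.1 and 14.9 CPM in WT_NTG (log2 difference -0.51 ± 0.10 (SE), adjusted p = 2.75e-05). In N2V7_NTG MRPS6 had 13.96, 15.4 and 12.6 CPM (log2 difference -0.56 ± 0.10 (SE), adjusted p = 7.95e-06), whereas in N2V8_NTG it had 19.04, 20.2 and 20.8 CPM and did not cross the threshold. Both of the first groups lay wholly below UT.

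**Figure D3:**
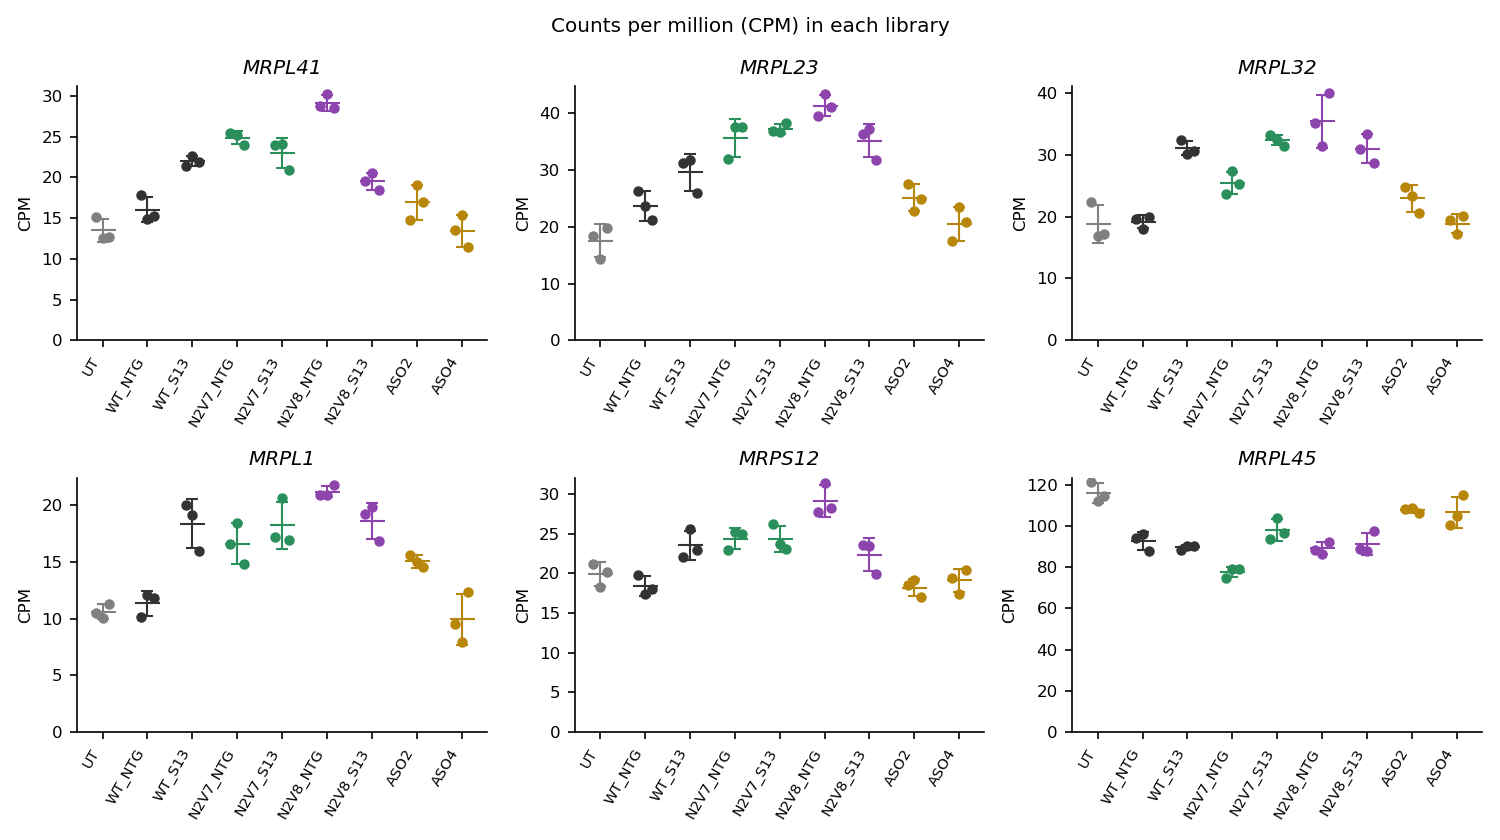
CPM of 6 members in the UT, NTG, S13 and antisense groups; points are libraries, the horizontal mark is the group mean and the bars are the SD (n = 3). MRPL41, MRPL23, MRPL32 and MRPL1 peak in N2V8_NTG, and MRPL45 is highest in UT.

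Members with an assigned role did not all follow the group. In the L7/L12 stalk, MRPL12, the factor-recruiting protein that also binds mitochondrial RNA polymerase, had 73.1, 67.6 and 66.7 CPM in UT, 80.1, 87.8 and 99.2 CPM in N2V7_NTG and 107, 109.03 and 106 CPM in N2V8_NTG, and it rose in both (0.36 and 0.64, log2). MRPL11, at the base of that stalk, rose in N2V8_NTG (log2 difference 0.47 ± 0.08 (SE), adjusted p = 2.02e-06), with 0.25 in N2V7_NTG and 0.00 in WT_NTG, neither past the threshold. MRPL10, which carries MRPL12, fell in N2V7_NTG and had -0.19 in N2V8_NTG. In N2V7_NTG the stalk members thus went in different directions against UT.

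Among the other large-subunit roles, MRPL36, a small zinc-binding protein, had 20.1, 17.7 and 21.4 CPM in UT and 28.98, 31.9 and 25.4 CPM in N2V8_NTG (log2 difference 0.55 ± 0.11 (SE), adjusted p = 4.23e-05). MRPL44, an RNase III-like protein, rose in N2V8_NTG (log2 difference 0.35 ± 0.07 (SE), adjusted p = 3.24e-05). MRPL58, a peptidyl-tRNA hydrolase kept in the ribosome, rose as well (log2 difference 0.44 ± 0.08 (SE), adjusted p = 2.84e-05). In the small subunit, MRPS12 of the decoding centre rose in N2V8_NTG (log2 difference 0.55 ± 0.09 (SE), adjusted p = 8.07e-07), as did MRPS34 (log2 difference 0.39 ± 0.05 (SE), adjusted p = 2.55e-08). MRPS2, MRPS16, MRPS18B and MRPS22 crossed the threshold in no NTG comparison, with N2V8_NTG values of 0.23, -0.08, 0.02 and -0.09. Of the 3 MRPS18 paralogs, whose proteins occupy different places in the ribosome, MRPS18C rose (log2 difference 0.62 ± 0.11 (SE), adjusted p = 5.58e-06), while MRPS18A (0.29) and MRPS18B did not cross the threshold. MRPS2, MRPS16 and MRPS18B also stayed below it in every other comparison with NTG or UT.

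With S13, WT and N2V7 cells had higher levels of many members than with their own NTG, and N2V8 cells had lower levels. In WT, 17 members rose and 0 fell, with a median of 0.18 against 0.00 over all genes. Of all genes tested, 6.53% rose and 4.24% fell. At an unadjusted p below 0.05, 45 members were higher and 2 lower, and DESeq2 and limma-trend each called 16 rises and 0 falls. The share of all genes at this unadjusted cut was not counted, here or below, so such counts describe the members alone. MRPL1 had 10.1, 12.1 and 11.8 CPM in WT_NTG and 20.04, 19.1 and 15.97 CPM in WT_S13 (log2 difference 0.70 ± 0.12 (SE), adjusted p = 1.8e-05). MRPL32 had 19.7, 18.04 and 19.9 CPM and 32.4, 30.2 and 30.6 CPM (log2 difference 0.69 ± 0.09 (SE), adjusted p = 1.54e-07). Both rose 1.62-fold with no overlap between groups. MRPL35 went from 33.2, 37.9 and 33.8 CPM to 47.6, 50.5 and 55.6 CPM (log2 difference 0.55 ± 0.09 (SE), adjusted p = 2.25e-06). MRPS28 (0.52), MRPS14 (0.48), MRPL51 (0.47), MRPL33 (0.47) and MRPL41 (0.46) completed the 8 largest. Of the 17 calls, 11 held when each library was left out in turn, all 8 of the named ones among them, and MRPL23 was lost in 4 of those 6 fits.

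In N2V7, 10 members rose and 0 fell with S13, with a median of 0.18, and 72 of 78 were above 0. Of all genes tested, 3.67% rose and 7.77% fell. At an unadjusted p below 0.05, 43 members were higher and 0 lower, and DESeq2 and limma-trend each called 10 rises and 0 falls. MRPL10 had 65.4, 69.9 and 73.2 CPM in N2V7_NTG and 90.3, 95.04 and 96.04 CPM in N2V7_S13 (log2 difference 0.43 ± 0.06 (SE), adjusted p = 4.9e-07). MRPL54 had 26.5, 27.2 and 24.2 CPM and 35.6, 31.2 and 35.7 CPM (log2 difference 0.40 ± 0.09 (SE), adjusted p = 0.000416). MRPS22, a small-subunit protein needed for its assembly, had 54.5, 49.4 and 56.5 CPM and 68.5, 75.2 and 67.4 CPM (log2 difference 0.39 ± 0.07 (SE), adjusted p = 7.89e-05). None of these 3 overlapped between groups. MRPS6 (0.39), MRPL57 (0.38), MRPL35 (0.37), MRPS15 (0.37) and MRPL32 (0.35) followed, and MRPL17 (0.35) and MRPL45 (0.34) were the remaining rises. MRPL10, MRPL17, MRPL45 and MRPS6 were also the 4 members that fell in N2V7_NTG against UT, and the N2V7_NTG libraries enter both comparisons. Of the 10 calls, 5 held when each library was left out.

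In N2V8, 0 members rose and 5 fell with S13, with a median of -0.11. Of all genes tested, 1.72% rose and 0.715% fell. At an unadjusted p below 0.05, 31 members were lower and 0 higher, and DESeq2 and limma-trend each called 5 falls and 0 rises. MRPL41 had 28.7, 30.3 and 28.5 CPM in N2V8_NTG and 19.6, 20.5 and 18.4 CPM in N2V8_S13, without overlap (log2 difference -0.58 ± 0.10 (SE), adjusted p = 3.43e-05). MRPL20, whose bacterial counterpart joins the large subunit early in assembly, had 51.1, 53.04 and 49.6 CPM and 42.8, 38.96 and 36.2 CPM (log2 difference -0.38 ± 0.08 (SE), adjusted p = 0.00016). MRPS12 (log2 difference -0.38 ± 0.09 (SE), adjusted p = 0.000845), MRPL35 (log2 difference -0.37 ± 0.08 (SE), adjusted p = 0.000923) and MRPS28 (log2 difference -0.35 ± 0.10 (SE), adjusted p = 0.0112) were the others. The count of 5 was 2 without N2V8_S13 replicate 3, 8 without N2V8_S13 replicate 2, and 9 without N2V8_S13 replicate 1 or N2V8_NTG replicate 1. MRPL41 and MRPL20 held in all of these fits.

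Set against UT instead of NTG, a comparison added after the data were seen, S13 stood on the higher side for all 3 effectors. In WT_S13, 20 members rose and 2 fell (all genes: 12.2% and 9.33%), with a median of 0.15. In N2V7_S13, 30 rose and 0 fell (all genes: 13.5% and 14.4%), with a median of 0.28, and 2 members were lower at an unadjusted p below 0.05. In N2V8_S13, 21 rose and 1 fell (all genes: 11.7% and 9.37%), with a median of 0.20. When each library was left out, 13 of 22, 19 of 30 and 13 of 22 calls held in WT, N2V7 and N2V8. MRPL23 (0.76, 1.10 and 1.02, in the order WT, N2V7, N2V8), MRPL1 (0.80, 0.78 and 0.82), MRPL32 (0.73, 0.78 and 0.73) and MRPL41 (0.71, 0.77 and 0.54) rose in each on the log2 scale. So MRPL41 in N2V8 was lower with S13 than with NTG but in both above UT. These comparisons share the UT libraries with each other, and those of S13 against NTG share the S13 libraries with them.

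The response to S13 differed between effectors when the difference itself was tested, as the S13-against-NTG change of one effector minus that of another. Between WT and N2V8, 37 members had the more positive change in WT and 0 in N2V8, with a median of 0.33 (all genes: 9.73% and 8.56%). MRPL41 (log2 difference 1.03 ± 0.15 (SE), adjusted p = 6.12e-07), MRPL35 (log2 difference 0.92 ± 0.12 (SE), adjusted p = 7.37e-08) and MRPL32 (log2 difference 0.88 ± 0.13 (SE), adjusted p = 1.07e-06) differed most. Of these 37, 32 held when each library was left out. Between N2V7 and N2V8, 28 members had the more positive change in N2V7 and 0 in N2V8, with a median of 0.30 (all genes: 5.38% and 8.84%), and 17 of the 28 held when each library was left out. Here MRPL35 (log2 difference 0.74 ± 0.12 (SE), adjusted p = 4.62e-06), MRPS28 (log2 difference 0.66 ± 0.15 (SE), adjusted p = 0.000624) and MRPL32 (log2 difference 0.54 ± 0.13 (SE), adjusted p = 0.00156) differed most. At an unadjusted p below 0.05, 0 members had the more positive change in N2V8 in either test, nor did DESeq2 or limma-trend call any. The NTG level of N2V8 enters both tests, and the members stood highest above UT in that group.

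Between WT and N2V7 the differences went both ways: 8 members had the more positive change in WT and 5 in N2V7, with a median of 0.04 (all genes: 8.63% and 6.24%). Both counts were near the share over all genes and are no result about the members as a group. The change was more positive in WT for MRPL41 (log2 difference 0.57 ± 0.15 (SE), adjusted p = 0.0032), MRPL1 (log2 difference 0.56 ± 0.17 (SE), adjusted p = 0.0116) and MRPS17 (log2 difference 0.44 ± 0.13 (SE), adjusted p = 0.0126). It was more positive in N2V7 for MRPL2, a core protein near the peptidyl transferase centre (log2 difference -0.41 ± 0.10 (SE), adjusted p = 0.00244), MRPL45 (log2 difference -0.38 ± 0.08 (SE), adjusted p = 0.000604) and MRPL10 (log2 difference -0.36 ± 0.09 (SE), adjusted p = 0.00179). The NTG levels of both effectors enter this test too. Against UT, MRPL41 had 0.25 in WT_NTG and 0.89 in N2V7_NTG, and 0.71 in WT_S13 and 0.77 in N2V7_S13. MRPL2, on the other side, had -0.05 and -0.28 with NTG, and -0.22 and -0.05 with S13, in the same order. Of the 13, 6 held when each library was left out. The count became 5 without the factor of unwanted variation, and of the 6 named genes only MRPL1 and MRPL45 kept their call there.

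**Figure D4:**
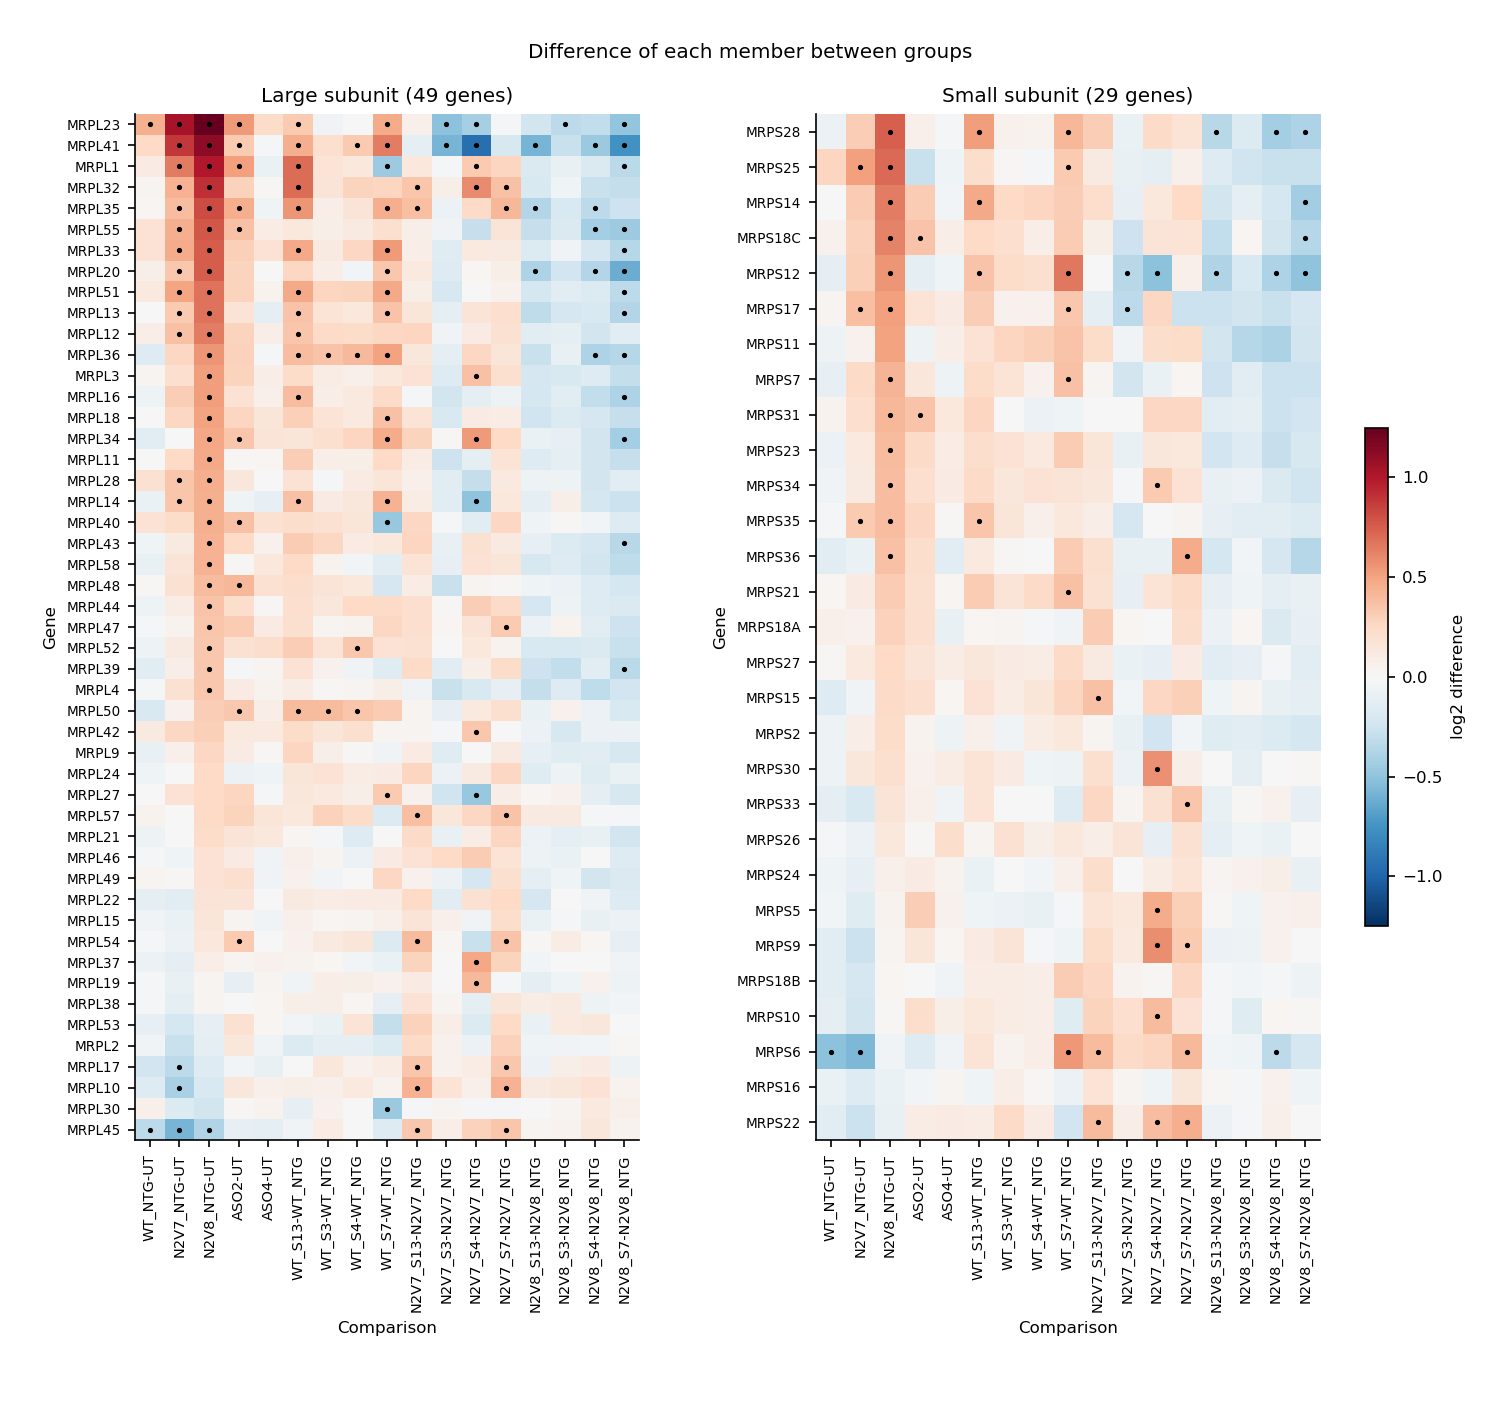
Log2 difference of each member (row) in each of the 17 comparisons with a control (column), red for higher and blue for lower; black dots mark members past the fold limit and an adjusted p of 0.05, and rows are ordered by the N2V8_NTG-UT value. The N2V8_NTG-UT column is red for most rows of both panels, and the 4 N2V8 columns against N2V8_NTG hold blue dots only.

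With the additional crRNAs, N2V8 had calls among the members on the lower side and WT mostly on the higher side, and differences between effectors were not tested here. In N2V8, 1 member fell with S3 (all genes: 2.15% rose and 0.917% fell), 8 with S4 (2.95% and 3.19%) and 17 with S7 (3.85% and 3.49%), with medians of -0.07, -0.16 and -0.20. At an unadjusted p below 0.05, 1, 3 and 0 members were higher in the same order, and DESeq2 and limma-trend called 0 rises in each. MRPL41 had 17.4, 17.3 and 16.9 CPM in N2V8_S7 against 28.7, 30.3 and 28.5 in N2V8_NTG (log2 difference -0.76 ± 0.11 (SE), adjusted p = 1.59e-07). MRPL20 (log2 difference -0.62 ± 0.08 (SE), adjusted p = 1.29e-08) and MRPS12 (log2 difference -0.51 ± 0.09 (SE), adjusted p = 1.03e-05) were next with S7. With S4 the largest falls were MRPL41 (-0.46), MRPL55 (-0.43) and MRPS28 (-0.42), and with S3 the call was MRPL23 (-0.33). The S4 count was 13 without N2V8_NTG replicate 1, and the S3 count was 3 without N2V8_S3 replicate 1 and 0 without N2V8_S3 replicate 2, N2V8_S3 replicate 3 or N2V8_NTG replicate 2.

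In WT the calls were mostly rises: 2 rose with S3 (all genes: 2.09% rose and 0.65% fell), 4 rose with S4 (2.02% and 0.67%), and 19 rose and 3 fell with S7 (9.37% and 9.83%), with medians of 0.09, 0.09 and 0.14. The S3 counts of WT and N2V8 were near the share over all genes and are no result about the members. With S7, MRPS12 had 29.95, 30.5 and 26.6 CPM against 19.8, 17.3 and 18.02 in WT_NTG, without overlap (log2 difference 0.66 ± 0.09 (SE), adjusted p = 3.62e-08). MRPL41 (0.64) and MRPS6 (0.54) also rose, and MRPL40 (-0.47), MRPL30 (-0.46) and MRPL1 (-0.46) fell. MRPL1, which rose with S13 in the same effector, had 10.5, 7.76 and 6.66 CPM in WT_S7 against 10.1, 12.1 and 11.8 in WT_NTG, with library 1 of WT_S7 inside the WT_NTG range. MRPL36 and MRPL50 rose with S3 (0.36 and 0.39) and with S4 (0.40 and 0.34), and MRPL52 and MRPL41 with S4 (0.34 and 0.33). The S3 count was 1 without WT_NTG replicate 2, WT_S3 replicate 1 or WT_S3 replicate 3, and the S4 count was 1 without WT_NTG replicate 2 or WT_S4 replicate 3 and 2 without WT_NTG replicate 3.

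In N2V7 the direction of the calls varied with the crRNA, again with no test between crRNAs. With S3, 0 rose and 4 fell (all genes: 3.13% rose and 1.02% fell), with a median of -0.07 and 6 members higher at an unadjusted p below 0.05. MRPL41 (-0.58), MRPL23 (-0.51) and MRPS12 (-0.35) fell most. With S7, 13 rose and 0 fell (5.36% and 8.9%), with a median of 0.19 and 1 member lower at an unadjusted p below 0.05. MRPS36 (0.47), MRPS22 (0.45) and MRPL10 (0.44) rose most, and the count was 7 without N2V7_S7 replicate 3. DESeq2 and limma-trend also called 0 rises with S3 and 0 falls with S7. With S4, 13 rose and 5 fell (9.84% and 14.7%), with a median of 0.11, but library 2 decided much of this. MRPS30 had 60.7, 147 and 53.3 CPM in N2V7_S4 and MRPL41 had 16.02, 6.18 and 21.6 CPM, in each case with library 2 far from the other two. The S4 calls with the largest values were MRPL32 (0.59), MRPS9 (0.58) and MRPS30 (0.57) upward and MRPL41 (-0.94), MRPS12 (-0.51) and MRPL14 (-0.50) downward. Without library 2 the count was 9, without library 3 it was 30, and with the 2 compared groups alone and no factor it was 1.

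Members crossed the threshold with ASO2. With ASO4 0 members did, which was near the small share over all genes and is no result about the members. The difference between the oligonucleotides was not tested. With ASO2, 12 members rose and 0 fell, with a median of 0.18 (all genes: 7.07% rose and 9.03% fell), and 1 member was lower at an unadjusted p below 0.05, with 0 falls by DESeq2 and limma-trend too. MRPL23 had 27.6, 22.8 and 24.99 CPM in ASO2 against 18.5, 14.4 and 19.9 in UT (log2 difference 0.53 ± 0.12 (SE), adjusted p = 0.000694). MRPL1 had 15.6, 14.98 and 14.5 CPM against 10.5, 10.03 and 11.3 (log2 difference 0.51 ± 0.13 (SE), adjusted p = 0.00242). Both genes stood wholly above UT in ASO2. MRPL35 (0.46), MRPL48 (0.41), MRPL55 (0.36), MRPL40 (0.36), MRPS18C (0.36) and MRPS31 (0.35) followed. The count was 21 without UT replicate 1 and 5 without UT replicate 2, so it leaned on single UT libraries. With ASO4, 0 members changed by edgeR, by DESeq2 or by limma-trend, and 7 of 78 had an unadjusted p below 0.05. Of all genes tested, 0.93% rose and 1.22% fell, and the members' median was 0.03. ASO4 is the group in which the gene sum of C9orf72 fell. By qPCR in HEK293T cells the paper reports that ASO-2 lowered the transcript variant V3 alone, which gene sums do not resolve. The control was the same untransfected cells for both oligonucleotides, so oligonucleotide and delivery cannot be told apart.

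Large-subunit and small-subunit genes moved in the same direction in most comparisons, with a somewhat larger share of calls in the large subunit. In N2V8_NTG against UT 57.1% of the large and 41.4% of the small subunit rose, with medians of 0.35 and 0.29. In WT with S13 the shares were 26.5% and 13.8% and the medians 0.21 and 0.17. In N2V7 with S13 they were 14.3% and 10.3% with medians of 0.17 and 0.19, and in N2V8 with S13 6.12% and 6.9% fell, with medians of -0.12 and -0.11. The medians of the subunits lay within 0.06 of each other in these 4 comparisons. In WT with S7 the small subunit had the higher median, 0.24 against 0.13. The difference between subunits was described and not tested.

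Transcript length moved with several of these results, but not with all. In N2V8_NTG against UT the median of all other tested genes was 0.24 for canonical transcripts under 1000 bases, 0.12 from 1000 to under 2000, 0.04 from 2000 to under 4000 and -0.12 at 4000 and over. The members of the same classes had medians of 0.44, 0.34, 0.21 and 0.23, above the other genes in each class. Of the 78 members, 26 were under 1000 bases, 34 from 1000 to under 2000, 12 from 2000 to under 4000 and 6 at 4000 and over, whereas 5636 of the other genes fell in the longest class. In WT with S13 the other genes had 0.14 in the shortest and -0.06 in the longest class, and the members 0.25 and 0.19. In N2V7 with S13 the shortest class had 0.18 for other genes and 0.17 for members, so there the short members did not stand above other short genes. In N2V8 with S13 the order turned, with -0.05 for the other short genes and -0.14 for the short members. In N2V7 with S4 the other short genes stood at -0.05 and the short members at 0.10, and in WT_NTG against UT at 0.06 and -0.05. The part of length in the results was not tested.

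**Figure D5:**
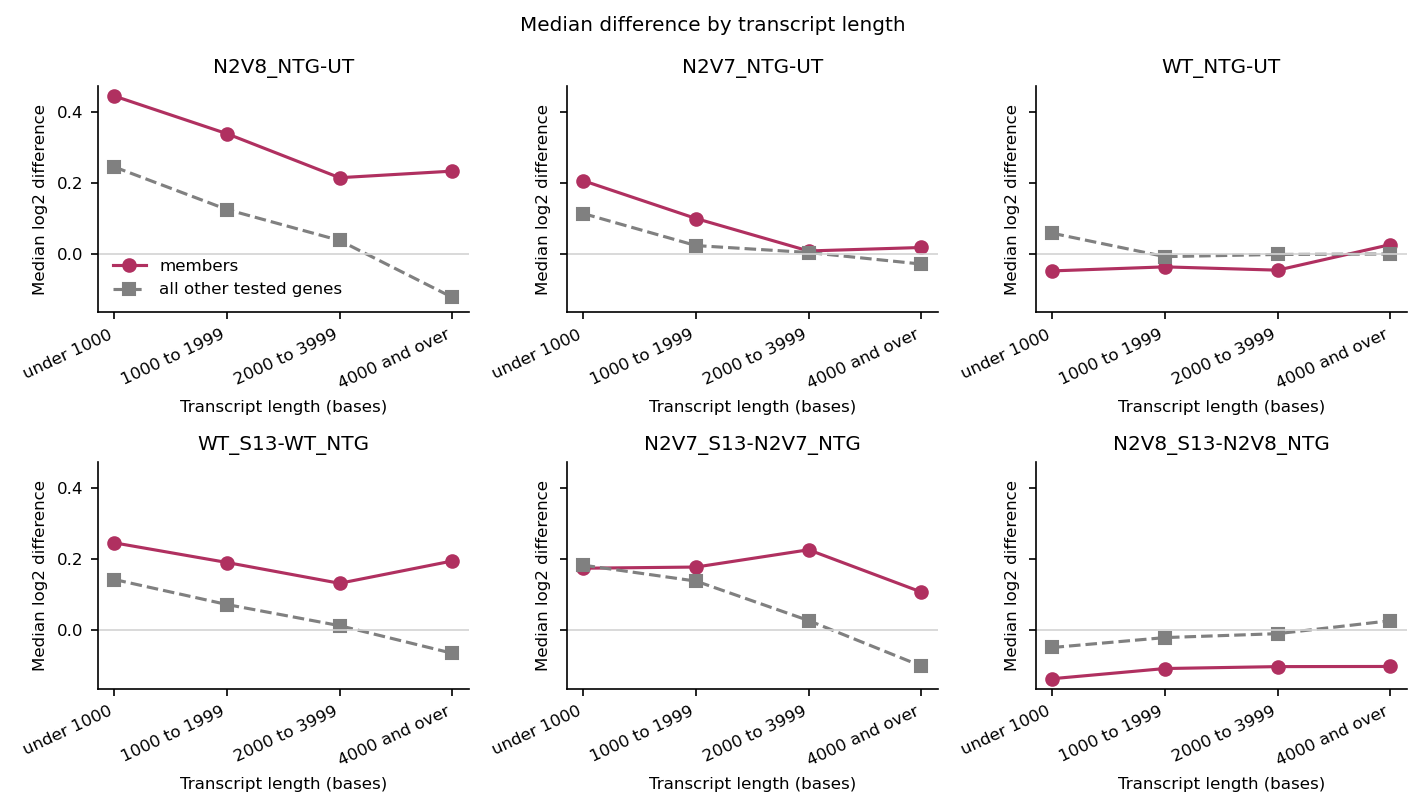
Median log2 difference by canonical transcript length class (bases) for the members (circles) and for all other tested genes (squares) in 6 comparisons. In N2V8_NTG-UT the members run from 0.44 in the shortest class to 0.23 in the longest and the other genes from 0.24 to -0.12.

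Other nuclear gene groups give the members a frame of reference. The cytosolic ribosomal protein genes, 81 tested genes with short and abundant transcripts, had a median of -0.05 in N2V8_NTG against UT with 3 risen and 3 fallen, and -0.01 in WT with S13 with 2 risen. In N2V7 with S13 their median was 0.18, with 4 risen and 1 fallen, beside 0.18 for the members. The 38 complex I subunit genes, which like the members serve the respiratory chain, had a median of 0.42 in N2V8_NTG with 22 risen, 0.20 in WT with S13 with 9 risen, 0.22 in N2V7 with S13 with 6 risen and -0.08 in N2V8 with S13. Of all genes tested, 15.3% rose and 14.7% fell in N2V8_NTG. With S13, 6.53% of all genes rose in WT, and 3.67% rose and 7.77% fell in N2V7. In each of the 4 comparisons given for complex I, its median had the sign of the members' median. The median of the cytosolic ribosomal genes had the other sign in 2, at -0.05 and -0.01. No difference between gene groups was tested.

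Genes that act with the mitochondrial ribosome were counted from lists of known function, with edgeR the sole tool run on them. Of 5 subunits without an MRP symbol, 0 crossed the threshold in S13 against NTG or in NTG against UT by edgeR, for any effector, although 4 had an unadjusted p below 0.05 in N2V8_NTG (all higher) and 4 in WT with S13 (3 higher). Of 17 tested mitochondrial translation factors, 8 (47.1%) rose in N2V8_NTG and 4 (23.5%) in WT with S13, where 15.3% and 6.53% of all genes rose, and 0 changed in N2V7 or N2V8 with S13, where 7 had an unadjusted p below 0.05 in each, all higher in N2V7 and all lower in N2V8. In WT with S13 these were MRRF, which recycles the ribosome (0.55), MTRES1 (0.45), the release factor MTRF1L (0.43) and TSFM, the exchange factor of the elongation factor (0.41). In N2V8_NTG SLIRP, which stabilises mitochondrial mRNA, had 0.73 and MTRF1L 0.74. Of 25 assembly and rRNA modification genes, 4 (16%) rose and 1 fell in N2V8_NTG, near the share over all genes. In WT with S13 0 of them changed (5 at an unadjusted p below 0.05, all higher). The GTPase NOA1 (0.36) and MTERF3 (0.32) rose in N2V7 with S13, too few to read against 3.67% of all genes. Of 14 genes of mitochondrial transcription and its regulators, 3 (21.4%) rose and 1 fell in N2V8_NTG, counts too small to read against 15.3% of all genes. There MYC (0.86), ESRRA (0.65) and TFB2M (0.50) rose and the coactivator PPRC1 (-0.68) fell. In WT with S13 MYC rose (0.49), and in N2V7 with S13 PPARGC1B (-0.58) and PPRC1 (-0.44) fell. These are again too few to read against all genes, of which 6.53% rose in WT and 7.77% fell in N2V7.

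Over the 17 comparisons with a control, 60 of the 78 members changed at least once and 18 did not, 10 of the large and 8 of the small subunit. The same share over all tested genes was not counted, so these counts do not set the members apart. In N2V8_NTG against UT alone, 15.3% of all genes rose and 14.7% fell. Of the 60, 33 changed only upward, 1 (MRPL30) only downward and 26 in both directions. MRPL41 was called most often, in 11 comparisons (6 rises and 5 falls), followed by MRPL23 in 10, MRPL35 in 9, MRPS12 in 8, and MRPL1 and MRPL36 in 7 each. MRPL32 was called in 6, all of them rises, and MRPL50 in 4, all rises. The comparisons share control libraries, so these counts are not independent of each other.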

How the data were processed

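RNA of 54 libraries (18 groups of 3 replicates) was sequenced from both ends on 1 NovaSeq lane. The authors quantified reads with Salmon 1.5.2 against NCBI transcripts of GRCh38 and deposited estimated counts per gene, scaled by transcript length and library size, with a column marking the genes they kept. Such counts depend on how Salmon divides reads among near-identical copies, and they give gene sums that do not resolve transcript variants. The deposited counts were rounded to whole numbers. Library totals were 9546773 to 15099225.

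Genes passing edgeR's expression filter (15378) were fitted in edgeR 4.0.16 (R 4.3.3) by the quasi-likelihood test with TMM scaling, over all 54 libraries, with a term for each group and a single factor of unwanted variation taken from the residuals, leaving 35 residual degrees of freedom. This adapts the authors' own design of limma-trend with 1 such factor. A gene was called past 1.25-fold with a Benjamini-Hochberg adjusted p below 0.05, the adjustment running across every tested gene in every comparison of one family (S13 against NTG 3, NTG against UT 3, antisense against UT 2, differences between effectors 3, additional crRNAs 9, S13 against UT 3). The factor held 27.1% of the residual variance, and 96.3% of its squared weight lay on N2V7_S4. CPM in the text are TMM-scaled and carry no factor, except those of the cell type markers, which are scaled to library totals. A p-value sets a difference against the spread between replicates within groups, estimated over all 54 libraries and not only the compared groups. The study describes the replicates as independent. limma-trend (limma 3.58.1), DESeq2 1.42.0, other filters, scalings and left-out libraries were run as alternatives; for left-out libraries the factor's residuals reused the dispersion trend of all libraries and a coarser dispersion grid was used. Counts were simulated for the WT_S13 against WT_NTG comparison (15098 genes). Of the changes set in, 23.9% at 1.25-fold, 91.0% at 1.5-fold and 87.9% at 2-fold were found, with 0 false calls. A call needs an estimate past 1.25-fold, so changes near that size are often missed, in part by the rule itself. The simulated counts held no unwanted factor and no outlying library, so the 0 false calls need not carry over to the real libraries.

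Named in each S13, NTG and antisense comparison were up to 8 called members per direction, in other comparisons up to 3, then the members called most often, 16 members of assigned role, and the 3 highest and 3 lowest by level. MRPL42, further calls beside those limits, the S13 against UT values and the list genes in N2V8_NTG were named after their values were seen. The members and the gene lists were chosen with earlier results of these data known. Sequences and promoter coordinates come from RefSeq (GRCh38.p14), lengths from GENCODE v44 canonical transcripts (14451 of 15378 tested genes).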

Additional observations from a re-analysis of the deposited data

Results flagged for a closer look

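Single members differed between effectors in their response to S13, in the test of the difference itself (edgeR's quasi-likelihood test). Between WT and N2V7 this held for 13 members, near the share over all genes (8.63% more positive in WT and 6.24% in N2V7). On the log2 scale MRPL41 (0.57), MRPL1 (0.56) and MRPS17 (0.44) had the more positive change in WT, and MRPL2 (-0.41), MRPL45 (-0.38) and MRPL10 (-0.36) in N2V7. Without the factor of unwanted variation only MRPL1 and MRPL45 of these 6 kept their call. Between WT and N2V8 it held for 37 members, all more positive in WT (all genes: 9.73% in WT and 8.56% in N2V8), led by MRPL41 (1.03), MRPL35 (0.92) and MRPL32 (0.88). Between N2V7 and N2V8 it held for 28 members, all more positive in N2V7 (all genes: 5.38% in N2V7 and 8.84% in N2V8), led by MRPL35 (0.74), MRPS28 (0.66) and MRPL32 (0.54).

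The median change of the members also had opposite signs between effectors with the additional crRNAs, and there the difference was not tested. Among the library medians relative to UT, library 2 of N2V7_S4 (0.133) lay below library 2 of N2V7_NTG (0.146), so these groups overlapped. The other additional-crRNA groups did not overlap with their NTG group. With S3 it was 0.0941 in WT, -0.0725 in N2V7 and -0.0718 in N2V8. With S4 it was 0.0863 in WT, 0.107 in N2V7 and -0.162 in N2V8. With S7 it was 0.143 in WT, 0.186 in N2V7 and -0.204 in N2V8. For other tested genes under 1000 bases the medians, in the order WT, N2V7 and N2V8, were 0.103, -0.042 and 0.032 with S3. They were 0.103, -0.052 and -0.034 with S4, and 0.094, 0.212 and -0.080 with S7. Their sign was opposite to that of the members only in N2V8 with S3 and in N2V7 with S4. The pattern of signs is thus shared in part with other short genes, and the difference from them was not tested. All N2V8 values share the N2V8_NTG libraries, where the members were highest. With 3 libraries a group, no gap test for an outlying library was made on single values.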

How the results depend on the processing

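No call of a named member reversed its direction under any alternative. The counts were compared by size only, so this check could not show a reversal of a count. Of the recomputed counts of called members, 337 stayed within 1.5 times the reported count, 19 became smaller and 7 larger. Among named members 4005 recomputed values kept their side of the threshold and 318 lost their call, and 24 recomputed medians moved by more than 1 SD of replicates. Without the factor of unwanted variation the WT-N2V7 difference had 5 members in place of 13, WT with S4 had 2 in place of 4, N2V7 with S3 had 2 in place of 4 and N2V8 with S3 had 0 in place of 1. N2V7 with S4 had 9 in place of 18 with library 2 out of every fit, and 1 in a factor-free fit of the compared libraries alone. Leaving out single libraries gave 2 to 9 members for N2V8 with S13, 5 to 21 for ASO2, 1 to 2 for WT with S3, 1 to 5 for WT with S4, 9 to 30 for N2V7 with S4, 7 to 15 for N2V7 with S7, 0 to 3 for N2V8 with S3 and 6 to 13 for N2V8 with S4. It gave 33 to 44 for N2V8_NTG against UT, 14 to 20 for WT with S13 and 7 to 15 for N2V7 with S13. The causes were not tested. Replicate numbers did not pair the samples: deviations of same-numbered libraries had a mean correlation of 0.00502, and 0 of 17 comparisons had every pair above 0.1. A fit with the replicate block gave 16 members in place of 17 for WT with S13 and 29 in place of 30 for N2V7_S13 against UT, and the same count elsewhere. With 3 libraries a group and changes near the fold limit, members outside the calls cannot be said to be unchanged.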
